A study of Danio rerio with 8 samples.

Results

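The natriuretic peptide genes and their receptor genes were examined in hearts of zfpm1 mutant and control zebrafish. The set was a fixed list of 8 genes out of 31953 gene IDs counted: the peptide genes nppa (ENSDARG00000052960), nppb (ENSDARG00000052958), nppal (ENSDARG00000052948) and nppc (ENSDARG00000068126), and the receptor genes npr1a (ENSDARG00000031751), npr1b (ENSDARG00000018750), npr2 (ENSDARG00000104393) and npr3 (listed as NPR3, ENSDARG00000035253). They were chosen by name, with earlier results of these data known. RNA sequencing libraries came from hearts of TU strain fish at 21 days post fertilisation, 3 of zfpm1 mutants and 3 of controls. The labels name neither the mutant allele nor how it was made, and do not say whether a library held 1 heart or a pool, so the p-values cover only library-to-library spread, part of which may be technical. A library of each genotype is also labelled as whole embryos at 36 hours post fertilisation. The series asks which genes lie downstream of zfpm1, a cofactor of GATA transcription factors, in the embryo and in the maturing heart chambers.

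Natriuretic peptides are secreted hormones that act on salt balance, vessel tone and growth. The atrial type, from nppa, and the B type, from nppb, are made by heart muscle cells, increase when the heart wall is stretched, and mark the chamber myocardium of the zebrafish embryo. They act through the guanylyl cyclase receptor encoded by npr1 genes, which makes cyclic GMP inside the target cell. The C type, from nppc, acts mainly through the related cyclase encoded by npr2, and the receptor encoded by npr3 removes all of these peptides from the circulation. nppal is named as an A-like peptide gene, and the RefSeq gene table (assembly GRCz12tu) also lists it as anpl and cnp3. In that table nppal, nppb and nppa stand next to each other on 1 chromosome, with nppb between the other two.

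Total gene counts were 7614329 to 9909966 in mutant hearts and 8197337 to 9632464 in control hearts. Transcript levels are given as CPM (counts divided by a library size that TMM adjusts, using the bulk of genes to set libraries level). Fold changes are mutant over control on the log2 scale, each with its standard error (SE). The test was edgeR's quasi-likelihood test over 16707 genes, and a gene with a Benjamini-Hochberg adjusted p under 0.05 was called. The zfpm1 transcript itself was present in both groups, at 62.4, 53.0 and 92.1 CPM in mutant hearts and 51.3, 42.4 and 53.3 CPM in control hearts, with an edgeR adjusted p of 0.241, so its level does not check the genotype labels. Heart muscle transcripts marked the tissue in all libraries, with the cardiac myosin light chain gene MYL7 at 5199 to 8540.2 CPM in mutant and 10809.5 to 12834 CPM in control hearts. Mutant heart replicate 1 and control heart replicate 1 have the same total of all lines as the files labelled control embryo and mutant embryo (19276348 and 22649056), and hold a median of 0.503 and 0.504 of those files' counts per gene. The share of reads not aligned uniquely was also equal within each pair, at 11.05% and 12.84%. Each pair thus carries opposite genotype labels, and the nppal result is also given without both hearts. On the erythroid list described below, mutant heart replicate 1 was at 128 CPM and control heart replicate 1 at 6252 CPM. Each lay on the side of the other hearts of its label. The origin of the embryo-labelled files was not tested. In bulk tissue a change in the number of cells of a type and a change in RNA per cell cannot be told apart.

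Of the 8 genes, nppal was the only one called. It was higher in mutant hearts, while the abundant peptide genes nppa and nppb and all 4 receptor genes did not pass the test. The background over the whole table was 9.43% called, with 7.02% higher in mutants and 2.42% lower. A single call among 7 tested genes is near that background. The median log2 fold change of the 7 tested genes was -0.07, beside -0.01 over all genes tested. nppc fell below the filter on low counts.

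**Figure D1:**
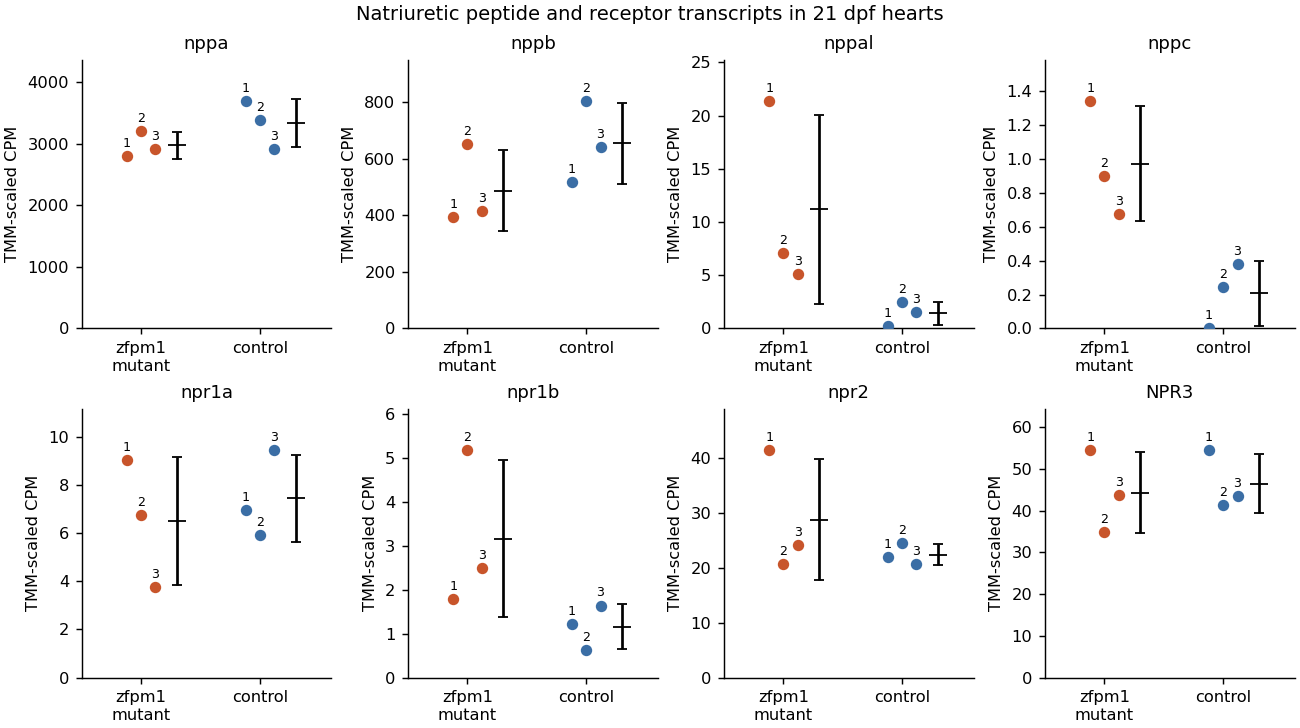
TMM-scaled CPM of the 8 genes in each heart library, on a linear axis from 0 in each panel, with zfpm1 mutants left (orange) and controls right (blue). Points are libraries numbered by replicate, and the bar beside them is the mean with its SD (n = 3 each). The groups do not overlap for nppal, nppc and npr1b, and overlap for the other genes. Among the 7 tested members 2 did not overlap, near the 29.7% of all genes tested.

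The atrial peptide gene nppa was highly expressed in every heart. It stood at 2793, 3210 and 2908 CPM in mutant replicates 1 to 3, against 3689, 3388 and 2918 CPM in control replicates 1 to 3. Control replicate 3 lay within the mutant range, and the highest mutant lay below the other controls. The mean was 2970.0 ± 215 CPM in mutant and 3332 ± 388 CPM in control hearts (SD, n = 3 each), and the log2 fold change was -0.17 (SE 0.27, 95% interval -0.79 to 0.46, edgeR adjusted p 0.783). On a linear scale that interval runs from 0.579-fold to 1.37-fold, so smaller changes in either direction were not resolved.

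The B-type peptide gene nppb stood at 394, 652 and 414 CPM in mutant hearts, against 519, 804 and 641 CPM in control hearts. Mutant replicate 2 lay above control replicates 1 and 3, and the other mutants lay below all controls. The mean was 487 ± 144 CPM in mutant and 655 ± 143 CPM in control hearts (SD, n = 3 each), and the log2 fold change was -0.43 (SE 0.27, 95% interval -1.05 to 0.19, edgeR adjusted p 0.397). Counting error is small for this gene. The ratio of the summed mutant to the summed control level was 0.738 (exact 95% counting interval 0.721 to 0.755, covering counting error only). Counting error thus made up little of the width of the fitted interval.

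The balance of nppb to nppa, which does not depend on how libraries are scaled, varied within each genotype. There were 141, 203 and 143 nppb counts per 1000 nppa counts in mutant replicates 1 to 3, and 141, 237 and 220 in control replicates 1 to 3. Both libraries numbered 1 were low, and the groups overlapped. The mean was 162 ± 35.5 in mutant and 199 ± 51.4 in control hearts (SD, n = 3 each), a difference smaller than the range within either group.

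nppa and nppb are products of heart muscle cells, and the transcripts used here to mark those cells had a lower summed level in mutant hearts. Over 10 gene IDs of the cardiomyocyte list, the sum was 15395, 25714 and 27382 CPM in mutant hearts and 38911, 41922 and 34286 CPM in control hearts, and the groups did not overlap. Of 9 tested IDs in that list edgeR called none, none had an unadjusted p under 0.05, and DESeq2 called 2. Over all genes tested these shares were 9.43%, 23.6% and 13.5%. The median log2 fold change was -0.64, and none of the IDs was at 0 in all hearts. Groups did not overlap for MYL7, cmlc1, actc1a and 1 TNNT2 ID, beside 29.7% of all genes tested. They overlapped for the others, with the myosin gene myh6 at -0.03. Set against these markers, nppa was at 181, 125 and 106 counts per 1000 marker counts in mutant hearts and at 94.8, 80.8 and 85.1 in control hearts. Every mutant lay above every control, with means of 137 ± 39.2 and 86.9 ± 7.17 in mutant and control hearts (SD, n = 3 each). For nppb the same measure was 25.6, 25.4 and 15.1 in mutant hearts and 13.3, 19.2 and 18.7 in control hearts, and the groups overlapped. In these ratios the markers weigh by their counts, most of all MYL7, cmlc1 and actc1a, whose groups did not overlap. The level of nppa itself overlapped between the groups. Ratios to markers with overlapping groups, such as myh6, were not computed. With 3 libraries a group an exact permutation test cannot go below p = 0.1, so the ratios are given without one.

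**Figure D2:**
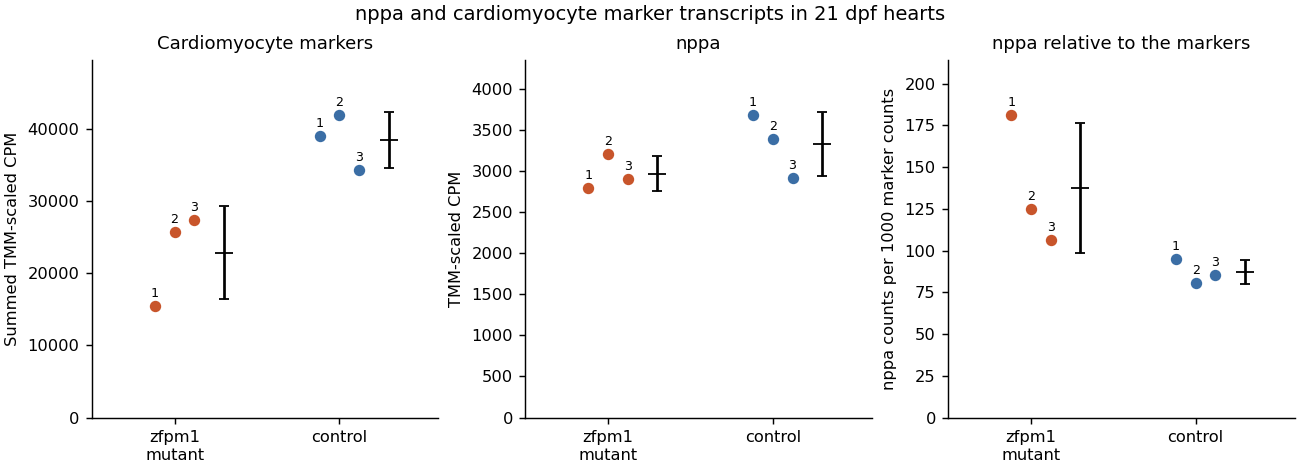
Summed TMM-scaled CPM of the cardiomyocyte markers (left), TMM-scaled CPM of nppa (middle) and nppa counts per 1000 counts of the markers (right), with zfpm1 mutants left (orange) and controls right (blue) in each panel and all axes from 0. Points are libraries numbered by replicate and bars are mean and SD (n = 3 each). The markers run from 15395 to 27382 CPM in mutants and from 34286 to 41922 CPM in controls, and nppa relative to them runs from 106 to 181 in mutants and from 80.8 to 94.8 in controls.

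nppal, named as an A-like peptide gene but also listed as cnp3, was scarce in control hearts and rose in mutants. Its counts were 191, 63 and 53 in mutant replicates 1 to 3 and 2, 20 and 12 in control replicates 1 to 3. The corresponding levels were 21.4, 7.09 and 5.10 CPM in mutant hearts, against 0.245, 2.47 and 1.51 CPM in control hearts. Every mutant lay above every control, as in 29.7% of all genes tested. Mutant replicate 1 was far above the other mutants, and control replicate 1 was below the other controls.

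The mean of nppal was 11.2 ± 8.88 CPM in mutant and 1.41 ± 1.11 CPM in control hearts (SD, n = 3 each), and the log2 fold change was 2.98 (SE 0.76, 95% interval 1.25 to 4.70, edgeR adjusted p 0.0414). On a linear scale the fold was 7.87, with an interval of 2.38 to 26.0. The call was lost without mutant replicate 1, where the log2 fold change was 2.12 (edgeR adjusted p 0.134), and without mutant replicate 2, where it was 3.23 (edgeR adjusted p 0.0572). It was also lost without control replicates 1, 2 or 3, at 2.47, 3.64 and 3.02 with edgeR adjusted p of 0.0748, 0.0599 and 0.151. It held without mutant replicate 3 (edgeR adjusted p 0.0368). Without both libraries numbered 1 it was 1.63 (edgeR adjusted p 0.108, with 7.42% of genes called), and all 13 alternative settings gave a higher level in mutants, from 1.63 to 3.64.

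Against nppa in the same library, nppal made up 7.65, 2.21 and 1.76 counts per 1000 nppa counts in mutant hearts and 0.0663, 0.728 and 0.519 in control hearts. The groups did not overlap in this ratio either, which no library scaling touches. nppa varied far less between hearts than nppal, so the ratio largely restates the nppal counts and is not a further result. Of the other genes within 3 places of nppal that had a matching ID and were tested, none was called. Over all genes tested 9.43% were called, so no call among so few genes is near the background. nppb and nppa are described above. CLCN6, a chloride transporter gene beyond nppa that was looked up after the values had been seen, was at 6.71, 7.32 and 5.10 CPM in mutant hearts and 7.34, 4.93 and 6.31 CPM in control hearts (log2 fold change 0.04, SE 0.32, edgeR adjusted p 0.962). On the other side, MFN2, a mitochondrial fusion gene likewise looked up afterwards, was at 118, 154 and 152 CPM in mutant hearts and 263, 187 and 231 CPM in control hearts. Its groups did not overlap, as in 29.7% of all genes tested (log2 fold change -0.68, SE 0.21, edgeR adjusted p 0.0764). prdm16, between MFN2 and nppal, had a log2 fold change of 0.40 (SE 0.43, edgeR adjusted p 0.648).

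Transcripts of other cell types differed between the same libraries. Over all genes tested, edgeR called 7.02% higher and 2.42% lower, and 23.6% had an unadjusted p under 0.05. The liver list, summed over 6 IDs, was at 3417, 2549 and 1935 CPM in mutant hearts and 131, 116 and 115 CPM in control hearts, with all 6 called higher. The myeloid list, over 7 IDs, was at 623, 637 and 938 CPM in mutant hearts and 185, 201 and 143 CPM in control hearts, with all 6 tested called higher and 1 ID carrying the symbol MPEG1 at 0 throughout. The erythroid list, over 6 IDs, was at 128, 78.1 and 34.9 CPM in mutant hearts and 6252, 7353 and 5376 CPM in control hearts, with all 5 tested called lower. The neuron list, over 7 IDs, was at 36.3, 10.5 and 16.4 CPM in mutant hearts and 10.4, 17.6 and 24.8 CPM in control hearts. Its groups overlapped, with gap43 at 0. Of 5 tested, neither edgeR nor DESeq2 called any, and none had an unadjusted p under 0.05. The gut and exocrine pancreas list, over 4 IDs, was at 52.8, 268 and 25.3 CPM in mutant hearts and 8.93, 150.3 and 52.6 CPM in control hearts, with FABP2 called higher. Their part in the nppal result was not tested.

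By the root mean square difference of log2 CPM over the 6 heart libraries, after centring each gene on its mean, the named genes most like nppal were adamtsl7 at 0.22, CKMT1B at 0.22 and btr02 at 0.24. CKMT1B, a mitochondrial creatine kinase gene, stood at 58.0, 19.9 and 10.4 CPM in mutant hearts and 0.734, 4.81 and 4.04 CPM in control hearts. adamtsl7 stood at 19.1, 6.42 and 4.43 CPM in mutant hearts and 0.122, 1.36 and 1.14 CPM in control hearts, and btr02 at 17.5, 5.85 and 3.66 CPM in mutant hearts and 0.122, 1.23 and 0.757 CPM in control hearts. They were picked for likeness over these same libraries, so their order across them is not a further result. For nppa, the member with the most counts, the closest were si:ch211-140m22.7 at 0.04, EIF4EBP2, a regulator of translation, at 0.05 and UBE4A, a ubiquitin ligase gene, at 0.05. Among the other tested members the closest to nppa was npr3 at 0.26, then nppb at 0.32, and nppal was the farthest at 1.83. Over all named genes tested, npr3 ranked only 3893 and nppb 5894 in likeness to nppa.

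nppc, a C-type peptide gene, was barely detected. Its counts were 12, 8 and 7 in mutant hearts and 0, 2 and 3 in control hearts, or 1.34, 0.900 and 0.674 CPM against 0, 0.247 and 0.378 CPM. Every mutant lay above every control. The summed counts were 27 in mutant and 5 in control hearts, and the ratio of levels was 4.64 (exact 95% counting interval 1.76 to 15.4). The gene did not pass the filter on low counts. With no filter, over 25309 genes, its log2 fold change was 2.13 (SE 1.15, 95% interval -0.35 to 4.61, edgeR adjusted p 0.332). At this depth the fit did not resolve a difference in nppc. Its interval uses a spread that edgeR estimates partly from other genes, while the counting interval covers counting error only. A further peptide gene outside the list, nppcl (ENSDARG00000043460), had 1, 0 and 1 counts in mutant hearts and 2, 3 and 2 in control hearts.

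The receptor genes did not pass the test in either direction. npr1a, which encodes a cyclase receptor for the A-type and B-type peptides, stood at 9.06, 6.75 and 3.76 CPM in mutant hearts, against 6.97, 5.92 and 9.46 CPM in control hearts. The groups overlapped across most of their range. The means were 6.52 ± 2.66 CPM in mutant and 7.45 ± 1.82 CPM in control hearts (SD, n = 3 each), and the log2 fold change was -0.19 (SE 0.39, 95% interval -1.07 to 0.68, edgeR adjusted p 0.824), and both groups summed to 180 counts.

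Its paralog npr1b was rarer, with 16, 46 and 26 counts in mutant hearts and 10, 5 and 13 in control hearts. That gave 1.79, 5.18 and 2.5 CPM in mutant hearts, against 1.22, 0.617 and 1.64 CPM in control hearts. Every mutant lay above every control, as groups did not overlap in 29.7% of all genes tested. The lowest mutant exceeded the highest control by little, and mutant replicate 2 stood apart. The means were 3.16 ± 1.79 CPM in mutant and 1.16 ± 0.514 CPM in control hearts (SD, n = 3 each), and the log2 fold change was 1.43 (SE 0.60, 95% interval 0.08 to 2.78, edgeR unadjusted p 0.0385, adjusted p 0.184). It was called under none of 13 alternative settings, where its log2 fold change ran between 0.88 (mutant replicate 2 left out) and 1.76.

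npr2, which encodes the cyclase receptor for the C-type peptide, stood at 41.4, 20.7 and 24.2 CPM in mutant hearts, against 21.9, 24.5 and 20.7 CPM in control hearts. Mutant replicate 1 was high and the other mutants lay within the control range. The means were 28.8 ± 11.1 CPM in mutant and 22.4 ± 1.97 CPM in control hearts (SD, n = 3 each), and the log2 fold change was 0.36 (SE 0.28, 95% interval -0.26 to 0.99, edgeR adjusted p 0.484). Without mutant replicate 1 it was 0.02, so the difference in means rested on that library.

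npr3, which encodes the clearance receptor, stood at 54.5, 34.9 and 43.7 CPM in mutant hearts, against 54.6, 41.3 and 43.6 CPM in control hearts. The libraries numbered 1 were the highest of each group, and the groups overlapped. The means were 44.4 ± 9.82 CPM in mutant and 46.5 ± 7.07 CPM in control hearts (SD, n = 3 each), and the log2 fold change was -0.07 (SE 0.22, 95% interval -0.56 to 0.43, edgeR adjusted p 0.897). This was the narrowest interval among the 7 tested members, from 0.677-fold to 1.35-fold.

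The makeup of the receptor transcripts was also compared within libraries. There were 760, 594 and 553 npr2 counts per 1000 npr3 counts in mutant hearts and 401, 594 and 474 in control hearts. For npr1a there were 166, 194 and 85.9 per 1000 npr3 counts in mutant hearts and 128, 143 and 217 in control hearts. Both ratios overlapped between the groups.

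The other genes of the pathway came from a list of 27 genes for peptide processing, peptide breakdown and cyclic GMP signalling, of which 22 gene IDs were found and 19 tested. Of these, 2 rose and none fell, near the background of 7.02% called higher. The median log2 fold change was 0.53, beside -0.01 over all genes tested, and 15 of the 19 values lay above 0. An unadjusted p under 0.05 was reached by 7, beside 23.6% of all genes tested, and DESeq2 called 6, beside 13.5%. Groups did not overlap in 8 of the 19, beside 29.7% of all genes tested.

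The peptide processing genes did not pass the test. CORIN, which encodes the protease that cleaves the atrial peptide precursor in mammals, stood at 74.6, 89.8 and 136 CPM in mutant hearts and 159, 50.9 and 92.3 CPM in control hearts, and the groups overlapped widely (log2 fold change -0.01, SE 0.39, edgeR adjusted p 0.995). The FURIN ID ENSDARG00000062909, for a general proprotein convertase that cleaves the B-type precursor in mammals, had means of 36.4 ± 8.0 CPM in mutant and 27.9 ± 2.22 CPM in control hearts (SD, n = 3 each, edgeR adjusted p 0.321). The other FURIN ID, ENSDARG00000070971, averaged 20.3 ± 1.58 CPM in mutant and 22.6 ± 4.77 CPM in control hearts (log2 fold change -0.15, edgeR adjusted p 0.739). For breakdown, IDE, a peptidase gene, averaged 103 ± 12.3 CPM in mutant and 114 ± 3.22 CPM in control hearts (SD, n = 3 each, edgeR adjusted p 0.681). The gene ostn encodes osteocrin, which in mammals occupies the clearance receptor, and averaged 11.6 ± 6.04 CPM in mutant and 8.02 ± 2.03 CPM in control hearts (SD, n = 3 each, edgeR adjusted p 0.502). In these lists, of 3 processing and 2 breakdown IDs tested, edgeR and DESeq2 called none and none had an unadjusted p under 0.05. Over all genes tested these shares were 9.43%, 13.5% and 23.6%, and so few IDs do not tell these lists from that background.

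The clearest difference in the pathway was in the other source of cyclic GMP, the soluble cyclase that responds to nitric oxide. GUCY1A1, its alpha subunit gene, stood at 31.2, 14.6 and 8.86 CPM in mutant hearts, against 0.489, 0.493 and 0 CPM in control hearts. It was near absent from controls and present in all mutants, and highest in mutant replicate 1. Its counts were 279, 130 and 92 in mutant hearts and 4, 4 and 0 in control hearts. It thus passed the filter on low counts only through the mutant libraries, and the size of its fold change rests on few control counts. Its log2 fold change was 5.73 (SE 0.75, 95% interval 4.02 to 7.44, edgeR adjusted p 0.00234), and it was called under all 13 alternative settings. The beta subunit gene GUCY1B1 did not pass, at 14.8, 5.29 and 6.74 CPM in mutant hearts and 5.14, 6.17 and 4.16 CPM in control hearts (edgeR adjusted p 0.305).

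Beside this, the smooth muscle list, over 7 IDs, was at 1117, 632 and 654 CPM in mutant hearts and 565, 546 and 581 CPM in control hearts. No ID was at 0 in all hearts. Of its IDs acta2 and 1 ID carrying the symbol CNN1 were called higher and the other CNN1 ID lower, and 4 of 7 had an unadjusted p under 0.05. The CNN1 ID called higher was at 45.1, 10.4 and 17.2 CPM in mutant hearts and 0.122, 0 and 0 CPM in control hearts. The CNN1 ID called lower was at 25.3, 31.5 and 24.2 CPM in mutant hearts and 103.7, 84.7 and 122 CPM in control hearts. The endothelium and endocardium list, over 5 IDs, was at 639, 699 and 847 CPM in mutant hearts and 1122, 739 and 859 CPM in control hearts, with none at 0 and none called by edgeR, 1 at an unadjusted p under 0.05 and 1 called by DESeq2. The epicardium and fibroblast list, over 8 IDs, was at 2246, 1477 and 1787 CPM in mutant hearts and 1325, 1887 and 1653 CPM in control hearts, with none at 0. Of these 8, edgeR called 1 POSTN ID lower and none higher, while 5 had an unadjusted p under 0.05 and the median log2 fold change was 0.55. WT1, wt1b, col1a1a and the other POSTN ID were at 0.67, 1.04, 0.62 and 0.63 on the log2 scale (edgeR adjusted p 0.120 to 0.192), with groups that did not overlap. Over all genes tested, edgeR called 9.43% and DESeq2 13.5%. An unadjusted p under 0.05 was reached by 23.6%, and groups did not overlap in 29.7%. The part of these cell type lists in the GUCY1A1 result was not tested.

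Downstream of cyclic GMP, the phosphodiesterase gene PDE5A (ENSDARG00000051915), which encodes an enzyme that degrades cyclic GMP, rose to 4.59, 3.83 and 1.73 CPM in mutant hearts, against 0.734, 0.617 and 1.01 CPM in control hearts. The groups did not overlap, and the log2 fold change was 2.08 (SE 0.56, edgeR adjusted p 0.0492). That call was held under 3 of 13 alternative settings, with log2 fold changes from 1.77 to 2.39 and adjusted p up to 0.219, and was lost without any 1 library other than mutant replicate 3 (edgeR adjusted p 0.126 to 0.169). Of 5 phosphodiesterase IDs tested PDE5A was the 1 called, beside 9.43% of all genes tested. PDE1A, PDE3A, PDE3B and PDE9A were at -0.42, 0.70, 0.15 and 0.51 on the log2 scale. The paralog pde5aa did not pass the filter on low counts. The kinase genes PRKG1 and prkg1a, for cyclic GMP-dependent protein kinase, averaged 109 ± 34.8 and 9.22 ± 4.32 CPM in mutant and 58.1 ± 18.8 and 3.71 ± 1.04 CPM in control hearts (SD, n = 3 each), with edgeR adjusted p of 0.109 and 0.0879. Of the 2 kinase IDs tested edgeR called none, while both had an unadjusted p under 0.05. DESeq2 called both, at a DESeq2 adjusted p of 0.0485 for PRKG1 and 0.0381 for prkg1a. Over all genes tested, edgeR called 9.43% and DESeq2 13.5%, and 23.6% had an unadjusted p under 0.05. The other kinase IDs on the list, PRKG2 with no counts in any heart and prkg3, did not pass the filter. The groups overlapped for PRKG1 and did not for prkg1a. PRKG1 was called by edgeR without mutant replicate 1 (log2 fold change 1.15, edgeR adjusted p 0.0433). It was also called without both libraries numbered 1 (log2 fold change 1.12, edgeR adjusted p 0.0478). With DESeq2 counted, PRKG1 was called in 3 of 13 alternative settings and prkg1a in 1. VASP, for an actin regulator that these kinases phosphorylate, was at 7.05, 26.6 and 11.7 CPM in mutant hearts and 1.59, 6.54 and 2.02 CPM in control hearts, with a log2 fold change of 2.15 (SE 0.63, edgeR adjusted p 0.0696) and a call in 7 of 13 alternative settings. The paralog vaspb averaged 130.2 ± 21.5 CPM in mutant and 95.8 ± 17.2 CPM in control hearts (SD, n = 3 each, edgeR adjusted p 0.237).

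**Figure D3:**
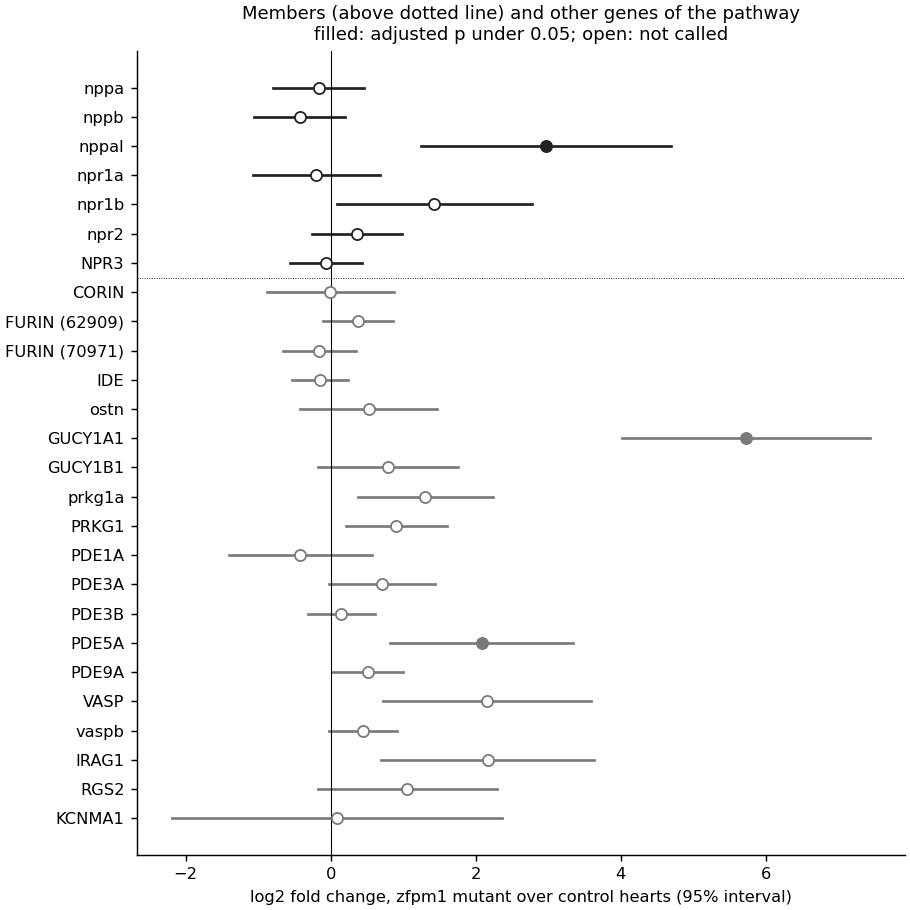
Log2 fold change of zfpm1 mutant over control hearts with its 95% interval for the 7 tested members (black, above the dotted line) and 19 tested genes of the pathway (grey). Filled points were called at an adjusted p under 0.05 by edgeR. nppal at 2.98, GUCY1A1 at 5.73 and PDE5A at 2.08 are filled, and the intervals of nppa, nppb, npr1a, npr2 and NPR3 include 0.

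Regulators of natriuretic peptide genes were a list of 22 genes with 20 IDs, all tested. It held transcription factor genes, among them GATA, T-box, MEF2 and SRF genes. It also held cofactor genes, among them zfpm1 itself (log2 fold change 0.50) and its relatives ZFPM2 and zfpm2b. edgeR called none, 4 had an unadjusted p under 0.05 and DESeq2 called 1, beside 23.6% and 13.5% of all genes tested. The median log2 fold change was -0.04, with 9 values above 0. GATA5, which encodes a cardiac GATA factor, was at 223, 241 and 253 CPM in mutant hearts and 241, 269 and 259 CPM in control hearts (log2 fold change -0.10, SE 0.17, edgeR adjusted p 0.795). HAND2, for a basic helix-loop-helix factor of the developing heart, was at 247, 235 and 251 CPM in mutant hearts and 355, 354 and 325 CPM in control hearts. Its groups did not overlap, with a log2 fold change of -0.50 (SE 0.18, 95% interval -0.89 to -0.10, edgeR adjusted p 0.124). HAND2 was the regulator that DESeq2 called (DESeq2 adjusted p 0.0225).

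The stability of these values under other settings differed between members. nppa stayed within -0.26 and 0.09 on the log2 scale over 13 alternative settings, nppb within -0.69 and -0.17, npr1a within -0.54 and 0.08, and npr3 within -0.23 and 0.20. None of these settings led to a call for any member other than nppal, which was called in 6 of 13.

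**Figure D4:**
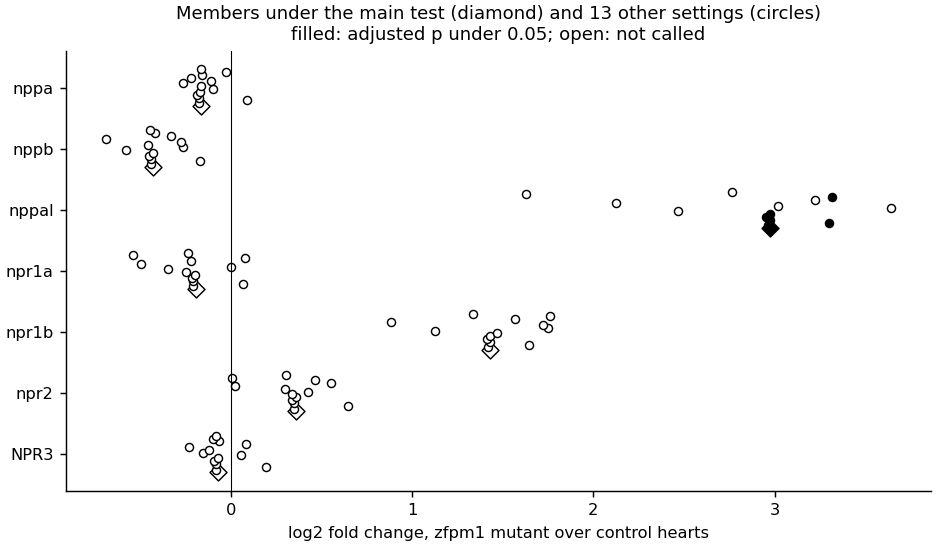
Log2 fold change of zfpm1 mutant over control hearts for the 7 tested members under the main test (diamonds) and 13 alternative settings (circles), with filled symbols where the adjusted p was under 0.05. nppal lies between 1.63 and 3.64 and is filled in the main test and 6 alternatives, and npr1b lies between 0.88 and 1.76 and is open throughout.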

How the data were processed

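Libraries were made from oligo(dT)-selected RNA with a TruSeq kit, per the labels' protocols. The authors deposited raw read counts per gene, 1 file a library. The submitters' processing notes name HTSeq 0.6.1p1, Bowtie2 2.2.3 and TopHat2 2.2.1, besides bcl2fastq and FastQC 0.11.5, and the genome build GRCz10. The strand setting is not given in the sources used here, so reads of overlapping antisense genes could not be told apart. Reads in no feature made up 42.4% to 48.8% of the heart files, against 9.53% to 10.0% of the embryo-labelled files, and the cause was not tested. Lines for unassigned reads, 60.5% to 64.9% of the heart totals, were left out.

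Symbols came from a table naming 26121 of 31953 IDs, and a capital symbol without a suffix counted as a match. edgeR 4.0.16 in R 4.3.3 compared the groups on these counts (filterByExpr with a minimum count of 10, TMM, glmQLFit, group as the only term), and DESeq2 1.42.0 was an alternative. The steps were tested on simulated data in which few genes changed, in random directions. That does not test them on changes as many and as lopsided as those called here. The members and lists were chosen with earlier results of these data known. Named genes were all members, called list genes (up to 4 a list by adjusted p) or else the 2 with the highest mean CPM, and the 3 genes most like each called member and like the member with the highest mean CPM (prior count 2). Promoter motifs, sequences and levels per length were not analysed here.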

Additional observations from a re-analysis of the deposited data

Results flagged for a closer look

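The files labelled as embryo were in no comparison. In the file labelled control embryo, nppal was at 25.8 CPM (scaled to total gene counts, without TMM), above the highest control heart at 2.08 CPM. nppc was at 1.36 CPM there, against at most 0.366 CPM in control hearts, and npr2 at 49.7 CPM, against at most 20.7 CPM. The file labelled mutant embryo had 0.179, 0.0597 and 21.8 CPM of these genes. Mutant heart replicate 1, which shares its total of all lines with the file labelled control embryo, had 25.1, 1.58 and 48.6 CPM, and control heart replicate 1, which shares its total with the file labelled mutant embryo, had 0.229, 0 and 20.5 CPM. In the first pair the heart count was 0.500 of the embryo-labelled count for nppa, 0.496 for nppb, 0.504 for nppal, 0.507 for npr2, 0.535 for npr3, 0.529 for npr1a and 0.421 for npr1b, where the median over 14361 genes was 0.503. In the second pair the shares were 0.499 for nppa, 0.494 for nppb, 0.489 for npr2, 0.476 for npr3, 0.491 for npr1a and 0.417 for npr1b, with a median of 0.504 over 12894 genes. With 3 libraries a group, single heart libraries were not tested as outliers.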

How the results depend on the processing

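Scaling by library size alone moved the median log2 fold change of all genes to 0.25, so changes under it are read from there. Under it nppa was at 0.089, npr1a at 0.067, NPR3 at 0.20, CORIN at 0.21, IDE at 0.10, GATA5 at 0.15, si:ch211-140m22.7 at 0.025, EIF4EBP2 at 0.070 and UBE4A at 0.16, each below 0 in the main test, and 236 genes were called lower, against 404 in the main test. DESeq2 called 697 lower, 6 of the pathway list and 1 regulator. With RLE size factors, or with a filter of at least 1 CPM in at least 3 libraries, 1 pathway gene was called. Without both libraries numbered 1, no member was called, CORIN was at 0.66 and UBE4A at 0.0084.

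Whether same-numbered libraries were paired was not settled by their correlations. With the replicate number as a block 0 members were called, nppal being at 2.77 with an edgeR adjusted p of 0.0949, CORIN was at 0.11, and over all genes 1476 were called, against 1576. Same-numbered libraries correlated at 0.10, 0.22 and -0.08 in their deviations. Mutant replicate 1 correlated best with control replicate 1 and mutant replicate 2 with control replicate 2, but mutant replicate 3 also with control replicate 1, at 0.14.

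With 1 library left out in turn, 604 to 1302 genes were called, 443 to 1035 higher and 161 to 328 lower, with 0 to 1 members, 1 to 3 pathway genes and 0 to 1 regulators. The log2 fold change ran from -0.49 to 0.078 for npr1a, from -0.23 to 0.082 for NPR3 and from -0.33 to 0.48 for CORIN. The cause of these differences was not tested. Depth limits nppc, npr1b and, in controls, nppal, whose counts were 46 or fewer in each control library and in each mutant library of the first 2. In the pathway, depth also limits GUCY1A1 in controls, with 4, 4 and 0 counts. PDE5A is limited in both groups, with 41, 34 and 18 counts in mutant and 6, 5 and 8 in control hearts.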
